A study of Mus musculus with 10 samples.

Results

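Foxl1 positive mesenchymal cells of the mouse intestine were set against Lgr5 positive stem cells of its epithelium, 2 cell types that meet at the base of the crypt. The comparison used 5 of the 10 RNA sequencing libraries of the study, 3 titled Foxl1 positive and 2 titled Lgr5 positive, taken by title, and every gene of the count table entered it. The Foxl1 positive mice were of mixed strain and carried Foxl1Cre with a Cre reporter, Rosa-YFP for replicates 1 and 2 and Rosa-mTmG for replicate 3. A Cre reporter of this kind stays on in the descendants of a cell once it has recombined, so the sort does not require Foxl1 RNA at the time of collection. The Lgr5 positive mice, also of mixed strain, had the genotype label Lr5-EGFP-IRES CreERT2, a knock-in whose EGFP marks the stem cells. They were a male for replicate 1 and a female for replicate 2. No treatment was named for any of the 5 libraries, and ages were not given. The tissue label read intestine mesenchyme on all of them, the epithelial stem cells included. A source animal was not given per library, and the spread that the p-values rest on is that of the libraries, which may be technical in part.

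Foxl1 is a forkhead transcription factor of the subepithelial telocytes, long thin mesenchymal cells that line the gut epithelium and supply it with Wnt ligands, BMPs and other secreted signals. Lgr5, a receptor for R-spondins, marks the dividing columnar stem cells between the Paneth cells of the crypt. Wnt signals, amplified by R-spondins, keep these stem cells cycling, BMPs restrain them, and hedgehog ligands run the other way, from epithelium to mesenchyme.

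Total counts were 11167676, 7095728 and 4368332 in Foxl1 positive replicates 1, 2 and 3 and 46415489 and 99628145 in Lgr5 positive replicates 1 and 2, and each library came from a sequencing run of its own, so run and group cannot be told apart. Between the Lgr5 positive libraries the Spearman correlation across 14259 genes was 0.978. Among the Foxl1 positive ones it was 0.791 for replicates 1 and 2, but 0.563 and 0.567 for either of them with replicate 3. Levels are in CPM, the reads of a gene scaled to a common library size over these 5 libraries, and the values of a gene are given in the order of the replicates, Foxl1 positive 1, 2 and 3 and Lgr5 positive 1 and 2.

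Foxl1 (chromosome 8, 123651585 to 123654544, mm9) stood at 0.194, 38.5 and 12.7 CPM in Foxl1 positive replicates and was without a count in Lgr5 positive ones (adjusted p = 0.0873). The 2 counts in replicate 1 were fewer than the 3 counts, or 0.291 CPM, that a count of 0 allows in that library. Replicates 2 and 3 carried the Foxl1 RNA of the group, and the difference did not pass the test. Lgr5 (chromosome 10, 114887370 to 115024836) stood at 104, 11.4 and 3.01 CPM in Foxl1 positive replicates and at 283 and 379.6 CPM in Lgr5 positive ones (log2 -3.06 ± 1.33, SE, adjusted p = 0.201). All Foxl1 positive libraries were below both Lgr5 positive ones for Lgr5, with replicate 1 the nearest to them, and this difference did not pass either. The collagen gene Col3a1 (chromosome 1, 45368383 to 45406551), a marker of fibroblasts, stood at 2455, 753 and 46041 CPM in Foxl1 positive replicates and was without a count in Lgr5 positive ones (at least 833610-fold higher, adjusted p = 0.0486). Replicate 3 carried most of the Col3a1 in its group, so the fold, taken from the group mean, rests mostly on that library. Neither Lgr5 positive library held a single count.

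Beyond these genes, both sorts held RNA of other cell types. The summed level of 24 simple keratin and junction genes of the epithelium came to 6661, 6849 and 420.1 CPM in Foxl1 positive and to 13994 and 10698 CPM in Lgr5 positive replicates. Foxl1 positive replicates 1 and 2 lay below both stem cell libraries and far above replicate 3. Enterocyte markers summed to 3603, 13023 and 115 CPM in Foxl1 positive and to 1744 and 2199.6 CPM in Lgr5 positive replicates, highest in Foxl1 positive replicate 2. Paneth cell markers summed to 8493, 1189 and 92.8 CPM in Foxl1 positive and to 5236 and 1097 CPM in Lgr5 positive replicates, and goblet cell markers to 9982, 1957 and 27.1 CPM in Foxl1 positive and to 2912 and 1298 CPM in Lgr5 positive replicates, both highest in Foxl1 positive replicate 1. T cell markers summed to 685, 825 and 29.6 CPM in Foxl1 positive and to 14.04 and 13.3 CPM in Lgr5 positive replicates, and endothelial markers to 257, 319.9 and 1723 CPM in Foxl1 positive and to 13.3 and 13.02 CPM in Lgr5 positive replicates. Replicates 1 and 2 held the T cell RNA and replicate 3 most of the endothelial RNA. In bulk libraries fewer cells of a type and less RNA per cell cannot be told apart, and what these admixtures add to each difference below was not tested.

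**Figure D1:**
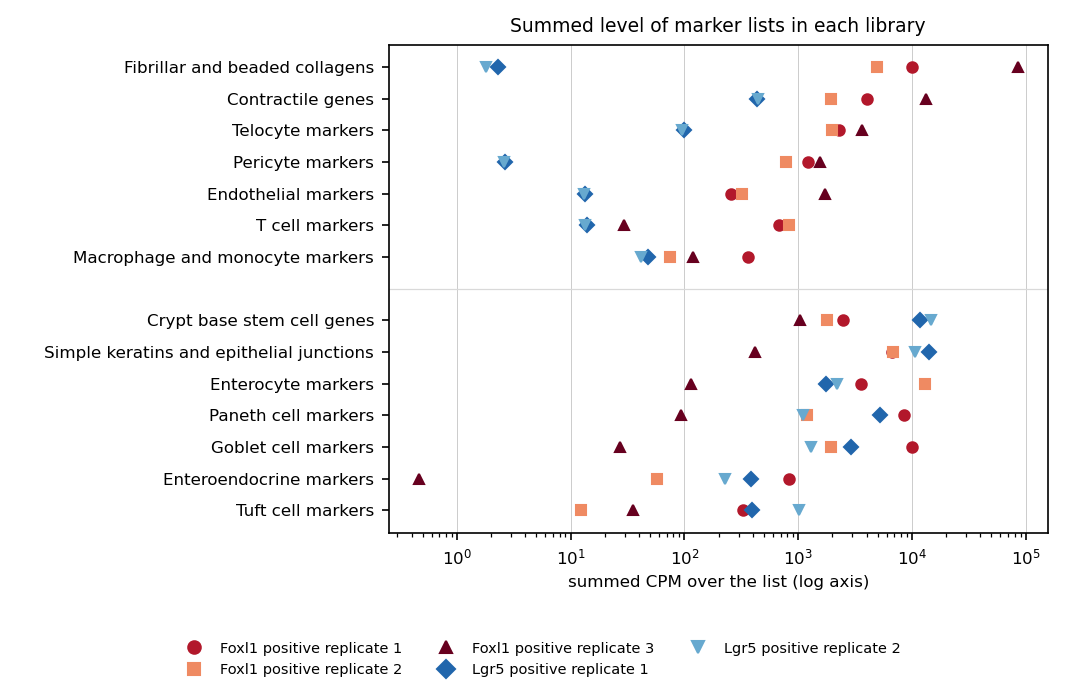
Summed CPM of marker lists in each of the 5 libraries, on a log axis, with 1 symbol per library. Matrix, contractile and pericyte lists separate the groups, while the enterocyte, Paneth and goblet lists of Foxl1 positive replicates 1 and 2 reach or pass the lower Lgr5 positive library and those of replicate 3 lie far to the left.

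Of all 14259 genes tested, 690 (4.84%) came out higher in Foxl1 positive than in Lgr5 positive cells and 126 (0.884%) lower at an adjusted p under 0.05 by edgeR's quasi-likelihood test, which is the test meant wherever no other is named. Every one of these 816 genes separated the groups without overlap. Separation alone was far more common, since all Foxl1 positive libraries lay above both Lgr5 positive ones for 21.8% of genes and below both for 28.6%, which is meant wherever genes are said to be above or below in all libraries. Of the genes called higher, 187 had no count in either Lgr5 positive library. For such a group the fold is computed with 3 counts summed over its libraries in place of 0, which is 0.0197 CPM in Lgr5 positive and 0.138 CPM in Foxl1 positive cells. It covers counting error only, and is a lower bound where both or all libraries of that group have the same level. The other group enters as the mean of its libraries, so the bound need not hold for each of them and can rest mostly on the highest. The lower calls with a Foxl1 positive count had log2 fold changes of -7.75 to -2.29, with a median of -3.27. The called set depended on the libraries: edgeR called 0 genes in either direction without Foxl1 positive replicate 1 or 2 or without either Lgr5 positive library (1677 to 3960 genes at an unadjusted p under 0.05), and 2123 and 1181 without Foxl1 positive replicate 3. DESeq2 called 2678 higher and 774 lower and, without single libraries, 1674 to 3378 higher and 48 to 2075 lower. All 690 and 126 genes kept their direction in every setting tried. On the deposited FPKM values, whose sums were 99422 to 196643 in Foxl1 positive and 333036 to 362858 in Lgr5 positive libraries, limma on log2(FPKM + 1) called 388 higher and 2713 lower, so that 12.5% of the calls were higher in place of 84.6%.

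Foxl1 positive replicates differed among themselves more than the Lgr5 positive ones. Over the 690 genes called higher, the highest Foxl1 positive library exceeded the lowest by a median factor of 3.77, and replicate 3 was the highest for 370 genes, replicate 1 for 194 and replicate 2 for 126. Over 404 of them counted in both Lgr5 positive libraries, those differed by a median factor of 1.59. Over 121 genes called lower with a count in every Foxl1 positive library, the corresponding factor was 2.02, against 1.26 between the Lgr5 positive libraries.

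**Figure D2:**
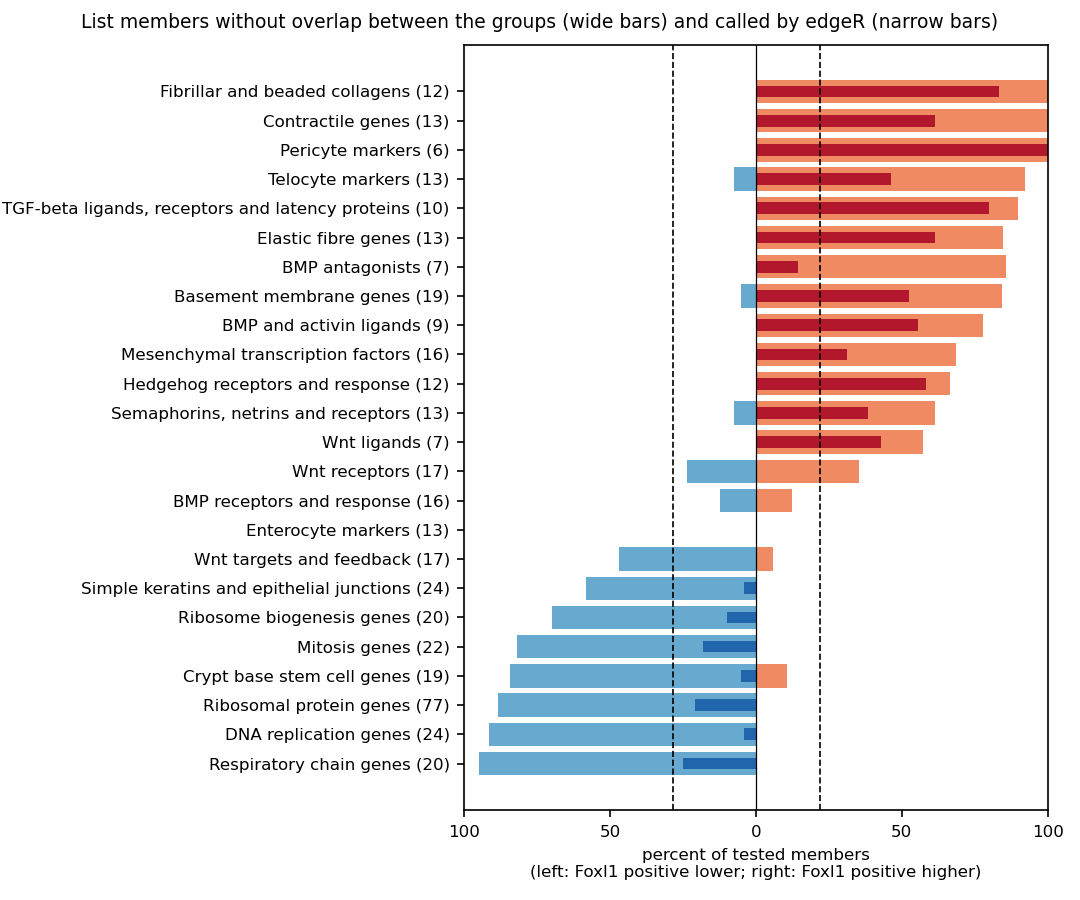
Percent of the tested members (number in brackets) of selected gene lists for which all Foxl1 positive libraries lie above (right) or below (left) both Lgr5 positive libraries, as wide bars, with the members called by edgeR as narrow bars. Dashed lines mark the shares over all genes, 21.8% above and 28.6% below; collagens, contractile genes and pericyte markers reach 100% above, and of the lists drawn the respiratory chain genes lie farthest to the left.

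The largest differences upward were in extracellular matrix genes. Besides Col3a1 they took in Sparc, a collagen-binding matrix protein, at 1494, 551 and 10849 CPM against 0 in both (at least 218260-fold higher, adjusted p = 0.0319), and the 3 chains of collagen VI. Col6a1 was at 785, 407 and 5365 CPM against 0 in both (at least 110982-fold higher, adjusted p = 0.0271). Col6a2 was at 1115, 579 and 3707 CPM against 0 in both (at least 91413-fold higher, adjusted p = 0.0181). Col6a3 was at 959.7, 745 and 2403 CPM against 0 in both (at least 69533-fold higher, adjusted p = 0.0162). All were highest in replicate 3. The basement membrane linker nidogen 1 (Nid1) was at 868, 609 and 2016 CPM against 0 in both (at least 59129-fold higher, adjusted p = 0.0162). The collagen IV chain gene Col4a2 was at 597, 239.7 and 2165 CPM against 0 in both (at least 50801-fold higher, adjusted p = 0.0205). Periostin (Postn), a matrix protein that binds integrins, was at 152, 495 and 2016 CPM against 0 in both (at least 45067-fold higher, adjusted p = 0.02402). The remaining 2 were proteases. Adam19 was at 1228, 744 and 367 CPM against 0 in both (at least 39599-fold higher, adjusted p = 0.0156), highest in replicate 1, and Adamdec1, a gut-enriched secreted protease, at 3018, 343 and 16759.8 CPM against 0.0212 and 0 CPM (adjusted p = 0.0317). Adamdec1 had a single count in the Lgr5 positive libraries, and its Foxl1 positive values spanned the widest range of these 10 genes after those of Col3a1.

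At the other end, 4 of the 126 genes called lower had no count in any Foxl1 positive library, as did 109 of all genes tested. They were Agr3, a disulfide isomerase of secretory epithelium, at 27.3 and 40.6 CPM in Lgr5 positive cells (at least 247-fold lower, adjusted p = 0.03502), the incretin gene Gip at 45.5 and 21.6 CPM (at least 243-fold lower, adjusted p = 0.03802), the cytochrome P450 gene Cyp2e1 at 31.01 and 32.8 CPM (at least 232-fold lower, adjusted p = 0.0355) and Smpx at 15.4 and 46.6 CPM (at least 225-fold lower, adjusted p = 0.0446). The keratin gene Krt23 stood at 0, 0.697 and 0 CPM in Foxl1 positive replicates and at 44.6 and 59.5 CPM in Lgr5 positive ones (log2 -7.75 ± 1.64, SE, adjusted p = 0.0475). Agmat, which encodes agmatinase, stood at 0.0971, 0.837 and 0.694 CPM in Foxl1 positive replicates and at 50.6 and 34.2 CPM in Lgr5 positive ones (log2 -6.33 ± 1.19, SE, adjusted p = 0.0355). Further down in the order, Tfap4, a helix-loop-helix factor linked to MYC, was at 4.76, 2.93 and 0.694 CPM against 115 and 91.6 CPM (log2 -5.18 ± 0.90, SE, adjusted p = 0.0311). Cebpb, a leucine zipper factor, was at 0.874, 0.976 and 1.39 CPM against 46.01 and 23.1 CPM (log2 -5.01 ± 0.98, SE, adjusted p = 0.03802). Ptma encodes prothymosin alpha, an abundant nuclear protein of dividing cells, and stood at 88.01, 79.5 and 74.5 CPM in Foxl1 positive replicates and at 3186 and 2208 CPM in Lgr5 positive ones (log2 -5.06 ± 0.73, SE, adjusted p = 0.0197). Its 3 Foxl1 positive values lay close together.

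A microRNA precursor, Mir703, completed the genes with the largest differences downward. It stood at 4.76, 7.95 and 3.702 CPM in Foxl1 positive replicates and at 398 and 298 CPM in Lgr5 positive ones (log2 -5.98 ± 0.65, SE, adjusted p = 0.0156). The row counts reads over the precursor and does not measure the mature form, whose RefSeq sequence (GRCm38.p6, chr5:98475616-98475636, minus strand) is shown to identify it, with the seed, bases 2 to 8, in capitals.
mmu-miR-703: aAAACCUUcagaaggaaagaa

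The study's title names telocytes as a source of Wnt ligands for the crypt. This comparison gives the RNA levels of the ligands in the sorted libraries. Since the Foxl1 positive ones also held RNA of other cell types, it does not show which cells made them. The test took in 7 ligand genes, and called 3 higher on the mesenchymal side and none lower. Wnt5a, mostly a ligand of noncanonical signalling, stood at 37.5, 66.2 and 108 CPM in Foxl1 positive replicates and at 0.764 and 1.06 CPM in Lgr5 positive ones (log2 6.26 ± 0.92, SE, adjusted p = 0.0206). Wnt4 stood at 13.5, 66.5 and 6.71 CPM in Foxl1 positive replicates and at 0.0848 and 0.05704 CPM in Lgr5 positive ones (log2 8.62 ± 1.76, SE, adjusted p = 0.0434). Wnt2b, which can drive canonical signalling in the crypt, stood at 105, 14.1 and 48.8 CPM in Foxl1 positive replicates and at 0.636 and 1.27 CPM in Lgr5 positive ones (log2 5.86 ± 1.24, SE, adjusted p = 0.0475). Each of the 3 peaked in a different replicate, Wnt2b in replicate 1, Wnt4 in replicate 2 and Wnt5a in replicate 3. Wnt9a separated the groups, at 3.21, 5.72 and 7.87 CPM against 0 and 0.05704 CPM (log2 7.34 ± 2.18, SE, adjusted p = 0.0963), without passing the test. Wnt3, the canonical ligand made by Paneth cells, overlapped at 5.34, 1.81 and 0 CPM against 6.83 and 4.96 CPM (log2 -1.29 ± 1.77, SE, adjusted p = 0.692). Foxl1 positive replicate 3, where it had no count, also had the lowest sum of Paneth cell markers, and a link between them was not tested. Wnt5b was at 3.01, 0.558 and 14.3 CPM against 1.85 and 2.65 CPM (log2 1.40 ± 1.67, SE, adjusted p = 0.645). Wnt9b was at 0, 0 and 5.09 CPM against 1.08 and 1.72 CPM (log2 0.24 ± 2.38, SE, adjusted p = 0.962), both overlapping.

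Per transcript length, on the authors' FPKM scale, Wnt5a was the most abundant Wnt ligand of Foxl1 positive cells at 4.99 ± 4.08 FPKM (SD, n = 3), next to Wnt2b at 4.25 ± 2.99 FPKM, a difference well inside the spread. Wnt4 followed at 1.79 ± 1.83 FPKM. In Lgr5 positive cells Wnt3 led at 1.09 ± 0.208 FPKM (SD, n = 2), ahead of Wnt5b at 0.551 ± 0.158 FPKM. DESeq2 called 4 of the 7 ligand genes higher with all libraries. Without Foxl1 positive replicates 1, 2 and 3 in turn it called 4 of 7, 4 of 8 and 4 of 7 tested, and a smaller share without either Lgr5 positive library.

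R-spondins and the secretion machinery gave 0 calls among 3 genes tested by edgeR. It had 1 higher and 0 lower at an unadjusted p under 0.05. DESeq2 called 1 higher and 0 lower and limma-voom 0 higher and 0 lower. Rspo3, which amplifies Wnt signals through Lgr receptors, was at 1.26, 22.2 and 27.1 CPM against 0 and 0.114 CPM (log2 8.03 ± 2.43, SE, adjusted p = 0.101) and separated the groups. Wls, which ferries Wnt proteins out of the Golgi, overlapped at 55.8, 20.5 and 219 CPM against 129.7 and 149 CPM (log2 -0.50 ± 0.96, SE, adjusted p = 0.784), as did Porcn, the enzyme that lipidates them, at 0, 0 and 8.79 CPM against 2.35 and 2.53 CPM (log2 0.24 ± 2.46, SE, adjusted p = 0.962), counted in Foxl1 positive replicate 3 alone of its group. Rspo2, below the filter on low counts, had counts in Foxl1 positive replicate 3 only, at 10.6 CPM.

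Among 17 Wnt receptor genes edgeR called 0, with 6 above and 4 below in all libraries, against 21.8% and 28.6% of all genes. It had 3 higher and 1 lower at an unadjusted p under 0.05. DESeq2 called 4 higher and 0 lower and limma-voom 0 higher and 2 lower. The tyrosine kinase receptor Ror1, a receptor of Wnt5a, was at 27.9, 0.139 and 41.2 CPM against 0 in both (adjusted p = 0.0826), and Fzd1 at 121, 25.4 and 259 CPM against 14.9 and 9.71 CPM (log2 3.45 ± 1.08, SE, adjusted p = 0.107). Fzd7, the frizzled receptor of crypt stem cells, was below in every Foxl1 positive library at 3.89, 21.1 and 27.1 CPM against 88.99 and 103 CPM (log2 -2.47 ± 0.85, SE, adjusted p = 0.128). Lgr6, a relative of Lgr5, was at 0, 2.93 and 4.396 CPM against 0 in both (adjusted p = 0.138). Of 5 secreted Wnt inhibitor genes tested 2 were higher. Sfrp1, a decoy for Wnt ligands, stood at 833, 189 and 1007 CPM in Foxl1 positive replicates and at 0.127 and 0.0951 CPM in Lgr5 positive ones (log2 12.54 ± 1.43, SE, adjusted p = 0.0162), and Dkk3, of the dickkopf family, stood at 170.2, 202 and 735 CPM in Foxl1 positive replicates and at 0.0212 and 0 CPM in Lgr5 positive ones (adjusted p = 0.0164). Sfrp5 was on the Lgr5 positive side at 0, 0 and 0.463 CPM against 34.3 and 24.7 CPM (adjusted p = 0.0557), and Frzb on the other at 15.2, 0.697 and 49.97 CPM against 0 in both (adjusted p = 0.0674), both short of the threshold.

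The response to Wnt signals gave 0 calls by edgeR among 17 target genes. Of these, 8 were below and 1 above in all libraries, against 28.6% and 21.8% of all genes. The median log2 difference was -1.14 against 0.06 over all genes. There were 2 higher and 4 lower at an unadjusted p under 0.05. DESeq2 called 2 higher and 3 lower and limma-voom 1 higher and 3 lower. Ascl2, the stem cell transcription factor, was at 11.9, 6.97 and 0.463 CPM against 77.96 and 82.6 CPM (log2 -3.62 ± 1.14, SE, adjusted p = 0.109). Sp5 was at 0, 1.53 and 0.231 CPM against 25.7 and 22.5 CPM (log2 -5.34 ± 1.74, SE, adjusted p = 0.117). Sox9, which marks the crypt base, was at 138, 99.7 and 14.3 CPM against 577 and 458 CPM (log2 -2.62 ± 0.92, SE, adjusted p = 0.133). These 3 had their highest Foxl1 positive values in replicates 1 or 2, where epithelial markers were high. Whether epithelial RNA adds to these values was not tested. Nkd2, a feedback inhibitor, lay on the other side at 2.43, 2.09 and 20.4 CPM against 0.127 and 0.00951 CPM (log2 6.91 ± 2.36, SE, adjusted p = 0.126).

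BMP and activin ligands lay on the mesenchymal side, with 5 of 9 tested genes higher, 7 above in all libraries and a median log2 difference of 8.04 (8.17 as fitted). Bmp4 stood at 424, 175 and 244 CPM in Foxl1 positive replicates and was without a count in Lgr5 positive ones (at least 14279.5-fold higher, adjusted p = 0.01496). Bmp5, a marker of villus-tip and subepithelial telocytes, stood at 239.8, 309.8 and 331 CPM in Foxl1 positive replicates and was without a count in Lgr5 positive ones (at least 14899-fold higher, adjusted p = 0.01496). Both were well represented in each Foxl1 positive library. Bmp6 was at 49.3, 29.8 and 27.8 CPM against 0.0636 and 0.171 CPM (log2 8.17 ± 1.22, SE, adjusted p = 0.0206). Bmp7 was at 94.8, 63.2 and 121 CPM against 8.72 and 8.19 CPM (log2 3.46 ± 0.66, SE, adjusted p = 0.0359). The activin subunit gene Inhba was at 21.5, 49.5 and 21.5 CPM against 0 in both (at least 1566-fold higher, adjusted p = 0.0205). The list summed to 1158, 842 and 879 CPM in Foxl1 positive and to 47.3 and 52.2 CPM in Lgr5 positive replicates. On the FPKM scale Bmp4 and Bmp5 were at 38.3 ± 16.1 and 33.2 ± 15.5 FPKM in Foxl1 positive cells (SD, n = 3), several times the level of the leading Wnt ligand. DESeq2 called 8 of the 9 with all libraries. Without Foxl1 positive replicates 1, 2 and 3 in turn it called 7 of 10, 7 of 9 and 7 of 9 tested, and fewer without either Lgr5 positive library.

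BMP antagonists, which shield the crypt base from BMPs, lay on the same side: 6 of 7 were above in all libraries, but Fstl3, an activin-binding follistatin, was the one call by edgeR, at 29.9, 12.1 and 74.96 CPM against 0.785 and 0.494 CPM (log2 5.92 ± 1.27, SE, adjusted p = 0.0486). All 7 were higher by DESeq2. Without Foxl1 positive replicates 1, 2 and 3 in turn it called 6 of 7, 7 of 8 and 6 of 6 tested, and a smaller share without either Lgr5 positive library. Grem1 was at 11.1, 2.23 and 104 CPM against 0 in both (adjusted p = 0.05997). Chrdl1 was at 9.91, 1.53 and 47.9 CPM against 0 in both (adjusted p = 0.0606), each with most counts in replicate 3. Fstl1 was at 319, 161 and 1448 CPM against 38.8 and 37.9 CPM (log2 4.07 ± 1.18, SE, adjusted p = 0.0923). Of 16 BMP receptor and response genes edgeR called 0, with 2 above and 2 below in all libraries, against 21.8% and 28.6% of all genes. It had 1 higher and 0 lower at an unadjusted p under 0.05. DESeq2 called 1 higher and 0 lower and limma-voom 1 higher and 0 lower. Bmpr2, the type II receptor, was at 166, 170.1 and 13.2 CPM against 3.203 and 4.64 CPM (log2 4.89 ± 1.27, SE, adjusted p = 0.0715), and the intracellular mediator Smad5 at 193, 96.5 and 172 CPM against 56.1 and 75.9 CPM (log2 1.22 ± 0.59, SE, adjusted p = 0.2404). Id1, a direct BMP target, was below in each Foxl1 positive library at 1.55, 20.8 and 21.98 CPM against 65.3 and 46.6 CPM (log2 -1.93 ± 1.07, SE, adjusted p = 0.306), while Id3, another, overlapped at 12.5, 37.9 and 196 CPM against 23.4 and 16.6 CPM (log2 2.04 ± 1.19, SE, adjusted p = 0.328).

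**Figure D3:**
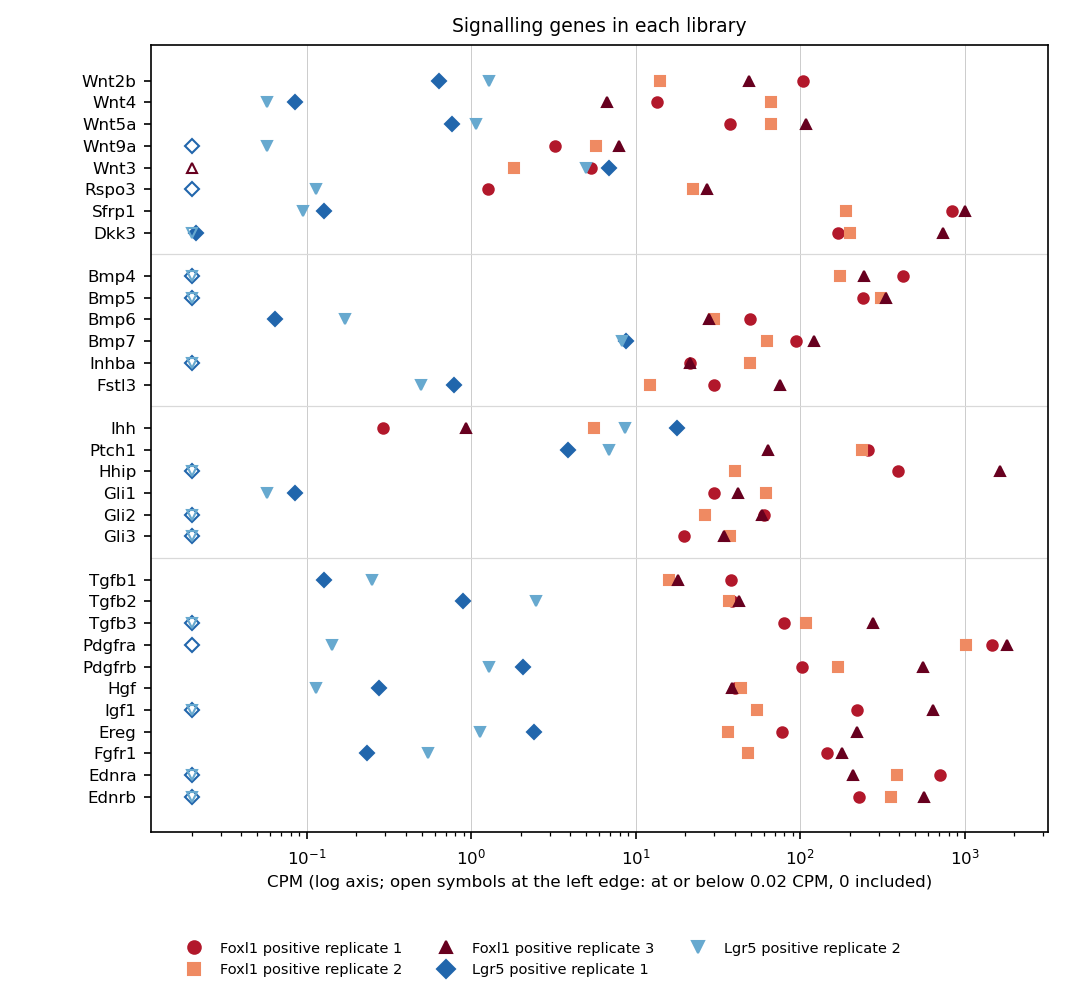
CPM of signalling genes in each library on a log axis, in blocks for Wnt, BMP, hedgehog and other pathways, with 1 symbol per library and open symbols at the left edge for values at or below 0.02 CPM. Foxl1 positive symbols lie to the right of the Lgr5 positive ones for every gene shown except Wnt3, which overlaps, and Ihh, which lies to the left. The genes drawn are a selection made with the values known. Genes of these pathways that overlap (Wnt5b, Wnt9b, Wls, Porcn, Areg) or lie lower (Sfrp5, Fzd7, Id1, Pdgfa, Met) are not drawn.

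Hedgehog response genes were called in 7 of 12 cases, all higher in Foxl1 positive cells. The transcription factors that carry the signal were among them. Gli1 was at 29.7, 62.2 and 42.1 CPM against 0.0848 and 0.05704 CPM (log2 9.25 ± 1.13, SE, adjusted p = 0.0164). Gli2 was at 60.03, 26.2 and 58.8 CPM against 0 in both (at least 2455-fold higher, adjusted p = 0.0164). Gli3 was at 19.7, 37.4 and 34.2 CPM against 0 in both (at least 1546-fold higher, adjusted p = 0.0191). Their forkhead targets Foxf1a, at 33.7, 29.1 and 116 CPM against 0 in both (at least 3034-fold higher, adjusted p = 0.0197), and Foxf2, at 62.7, 32.8 and 74.5 CPM against 0 in both (at least 2876-fold higher, adjusted p = 0.0164), had no Lgr5 positive count either. Ptch1, receptor and target in one, stood at 260.0, 237 and 63.4 CPM in Foxl1 positive replicates and at 3.88 and 6.83 CPM in Lgr5 positive ones (log2 5.12 ± 0.94, SE, adjusted p = 0.0347). Hhip, which binds and blocks the ligands, was the most uneven of the 7 at 393, 39.9 and 1647 CPM against 0 in both (at least 35207-fold higher, adjusted p = 0.0355). DESeq2 called 9 of the 12, and 8 to 9 without single libraries.

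Of the hedgehog ligands 1 passed the filter on low counts. Ihh, the main hedgehog ligand of the intestinal epithelium, was below in every Foxl1 positive library at 0.291, 5.58 and 0.925 CPM against 17.9 and 8.55 CPM (log2 -2.54 ± 1.52, SE, adjusted p = 0.338), without passing, and Shh had counts in the Lgr5 positive libraries alone, at 0.827 and 0.409 CPM, below the filter. The other ligand gene, Dhh, had 1 count in each group. Over the 8 tested hedgehog response genes with a RefSeq promoter (GRCm38.p6, 250 bases before to 50 after the start), 0 held the GLI motif GACCACCCA on either strand, against 0.289% of 27025 genes. This says only that those letters are not in this window.

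Notch signalling gave 1 call among 13 ligand, receptor and target genes, while 4.84% of all genes were called higher and 0.884% lower. Notch3, a receptor of mural cells, stood at 53.9, 20.9 and 106 CPM in Foxl1 positive replicates and at 0.488 and 1.13 CPM in Lgr5 positive ones (log2 6.20 ± 1.16, SE, adjusted p = 0.0355). Its target Heyl was at 83.3, 2.65 and 38.6 CPM against 0 and 0.0475 CPM (log2 10.38 ± 2.30, SE, adjusted p = 0.0517). Hey2 was at 25.3, 0.976 and 3.47 CPM against 0 in both (adjusted p = 0.0796). Hes1, the Notch target of crypt progenitors, was below in every Foxl1 positive library at 7.09, 47.0 and 27.8 CPM against 219 and 285 CPM (log2 -3.21 ± 0.83, SE, adjusted p = 0.0703). Dll1, the Notch ligand of the crypt, was at 32.5, 2.93 and 23.1 CPM against 60.4 and 47.8 CPM (log2 -1.47 ± 0.98, SE, adjusted p = 0.392).

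Ligands of the epidermal growth factor family gave 1 call among 10 genes tested, while 4.84% of all genes were called higher. Of the 10, 3 were above and 2 below in all libraries, against 21.8% and 28.6% of all genes. Epiregulin (Ereg) stood at 77.4, 36.5 and 221 CPM in Foxl1 positive replicates and at 2.42 and 1.12 CPM in Lgr5 positive ones (log2 5.98 ± 1.15, SE, adjusted p = 0.0379). Neuregulin 1 (Nrg1), a telocyte ligand for ErbB receptors, was at 1.46, 54.4 and 13.9 CPM against 0 in both (adjusted p = 0.0582), with replicate 2 far above the others, and Areg overlapped at 0.777, 55.2 and 2.54 CPM against 0.997 and 1.14 CPM (log2 4.19 ± 2.09, SE, adjusted p = 0.257). On the receptor side edgeR called 0 of 5, with 1 higher and 0 lower at an unadjusted p under 0.05. DESeq2 called 1 higher and 0 lower and limma-voom 1 higher and 0 lower. Egfr was above in all libraries at 140.1, 74.5 and 122 CPM against 28.95 and 35.2 CPM (log2 1.81 ± 0.59, SE, adjusted p = 0.116). Lrig1, which restrains ErbB signalling and marks stem cells, was below at 212, 68.1 and 98.3 CPM against 256 and 284 CPM (log2 -1.10 ± 0.65, SE, adjusted p = 0.331). Erbb3, the neuregulin receptor, was below at 28.1, 37.5 and 1.39 CPM against 61.9 and 54.2 CPM (log2 -1.38 ± 1.14, SE, adjusted p = 0.496). Of 4 fibroblast growth factor ligands edgeR called 0, with 2 higher and 0 lower at an unadjusted p under 0.05. DESeq2 called 4 higher and 0 lower and limma-voom 1 higher and 0 lower. Fgf7 was at 7.19, 11.02 and 18.3 CPM against 0 and 0.219 CPM (log2 6.70 ± 2.16, SE, adjusted p = 0.115). Fgf9 was at 55.1, 47.0 and 41.4 CPM against 19.2 and 16.8 CPM (log2 1.41 ± 0.62, SE, adjusted p = 0.206). Of 5 receptors 1 was called, Fgfr1, at 146, 47.98 and 179 CPM against 0.233 and 0.542 CPM (log2 8.29 ± 1.11, SE, adjusted p = 0.0178). Fgfr3, the receptor of crypt cells, was below in all libraries at 9.42, 4.18 and 8.56 CPM against 26.7 and 31.2 CPM (log2 -1.97 ± 0.85, SE, adjusted p = 0.199).

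Transforming growth factor genes were called in 8 of 10 cases, all higher. Tgfb3 stood at 79.4, 108 and 279 CPM in Foxl1 positive replicates and at 0 and 0.00951 CPM in Lgr5 positive ones (adjusted p = 0.01496). Its coreceptor Tgfbr3 was at 412, 137 and 568 CPM against 0 in both (at least 18913-fold higher, adjusted p = 0.0162). Latency proteins, which store the ligands in the matrix, were all called. Ltbp4 was at 664, 289 and 2731 CPM against 0.5303 and 0.456 CPM (log2 11.27 ± 1.69, SE, adjusted p = 0.0221). Ltbp3 was at 147, 75.3 and 283 CPM against 2.97 and 1.597 CPM (log2 6.20 ± 0.96, SE, adjusted p = 0.0231), both lowest in replicate 2. Ltbp1 was at 246, 103 and 1336 CPM against 0 and 0.0665 CPM (log2 13.69 ± 2.28, SE, adjusted p = 0.0276). Ltbp2 was at 17.0, 108 and 46.97 CPM against 0.467 and 0.409 CPM (log2 7.02 ± 1.23, SE, adjusted p = 0.0317). Tgfb1 and Tgfb2 completed the calls, at 37.98, 15.9 and 18.05 CPM against 0.127 and 0.247 CPM (log2 6.96 ± 1.31, SE, adjusted p = 0.0352) and 38.4, 36.7 and 42.3 CPM against 0.891 and 2.46 CPM (log2 4.54 ± 0.96, SE, adjusted p = 0.0462). The list summed to 2135, 1462 and 6894 CPM in Foxl1 positive and to 143 and 175 CPM in Lgr5 positive replicates. Replicate 3, the highest, also had the most collagen and endothelial RNA.

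Of 10 genes of the PDGF, HGF and stem cell factor axes 5 were higher. Pdgfra, the receptor that labels telocytes and other fibroblasts, stood at 1461, 1013 and 1806 CPM in Foxl1 positive replicates and at 0 and 0.143 CPM in Lgr5 positive ones (log2 14.08 ± 1.90, SE, adjusted p = 0.0181). Pdgfrb, the receptor of pericytes, was at 103, 169 and 557 CPM against 2.06 and 1.27 CPM (log2 7.37 ± 1.18, SE, adjusted p = 0.0249). The ligand genes Pdgfc and Pdgfd were higher too, at 36.5, 18.1 and 60.6 CPM against 0.382 and 0.675 CPM (log2 6.17 ± 1.13, SE, adjusted p = 0.0339) and 16.8, 5.86 and 32.4 CPM against 0 in both (at least 932-fold higher, adjusted p = 0.03695), while Pdgfa, which epithelium makes, was below in all Foxl1 positive libraries at 26.3, 19.8 and 14.3 CPM against 102 and 57.99 CPM (log2 -1.98 ± 0.62, SE, adjusted p = 0.106). Hgf, a mesenchymal ligand for the epithelial receptor Met, stood at 40.3, 43.7 and 38.6 CPM in Foxl1 positive replicates and at 0.276 and 0.114 CPM in Lgr5 positive ones (log2 7.71 ± 1.09, SE, adjusted p = 0.0191). Met itself was below in all Foxl1 positive libraries at 93.9, 57.3 and 68.02 CPM against 122 and 116 CPM (log2 -0.70 ± 0.52, SE, adjusted p = 0.441).

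Of 8 insulin-like growth factor genes tested, 4 were higher. Igf1 stood at 221, 54.3 and 642 CPM in Foxl1 positive replicates and was without a count in Lgr5 positive ones (at least 15523-fold higher, adjusted p = 0.0227). The other calls were binding proteins that hold the ligand. Igfbp3 was at 150.3, 47.1 and 158 CPM against 0.127 and 0.304 CPM (log2 9.05 ± 1.13, SE, adjusted p = 0.0164). Igfbp5 was at 433, 392 and 877 CPM against 0.0212 and 0.1996 CPM (log2 12.19 ± 1.49, SE, adjusted p = 0.0164). Igfbp7 was at 809, 462 and 2310.3 CPM against 4.94 and 5.94 CPM (log2 7.78 ± 1.23, SE, adjusted p = 0.0243). Both endothelin receptors were called. Ednra was at 711, 386 and 208 CPM against 0 in both (at least 22101-fold higher, adjusted p = 0.0156). Ednrb was at 229, 359 and 565 CPM against 0 in both (at least 19516-fold higher, adjusted p = 0.01496). Edn3, a telocyte ligand, was above in all libraries at 5.54, 29.8 and 30.8 CPM against 2.63 and 2.09 CPM (log2 3.22 ± 1.21, SE, adjusted p = 0.148), and Edn2, an epithelial one, below at 0.194, 0.418 and 0 CPM against 3.67 and 2.71 CPM (log2 -3.87 ± 1.64, SE, adjusted p = 0.1902), neither past the threshold.

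Prostaglandin genes were called in 2 of 9 cases and above in all libraries in 7. Ptgis, the prostacyclin synthase, was at 18.5, 18.1 and 61.3 CPM against 0.0636 and 0.152 CPM (log2 8.16 ± 1.41, SE, adjusted p = 0.0306). The receptor gene Ptger2 was at 6.12, 66.5 and 48.8 CPM against 0 in both (at least 2056-fold higher, adjusted p = 0.03297). Ptges, a prostaglandin E synthase, was at 14.96, 26.1 and 67.1 CPM against 0.636 and 0.124 CPM (log2 6.57 ± 1.45, SE, adjusted p = 0.0517). Ptger3 was at 0.0971, 1.67 and 3.01 CPM against 0 in both (adjusted p = 0.113). Guidance genes, known from axons and vessels, were called in 5 of 13 cases, with 8 above and 1 below in all libraries. Slit3 was at 92.5, 81.4 and 83.3 CPM against 0 in both (at least 4354-fold higher, adjusted p = 0.01496), and its receptors Robo1 and Robo2 were at 52.8, 64.7 and 65.01 CPM against 0.0424 and 0 CPM (adjusted p = 0.0181) and 84.8, 50.1 and 254 CPM against 0 in both (at least 6583-fold higher, adjusted p = 0.0178). Neuropilin 2 (Nrp2), a semaphorin coreceptor, was at 196, 196 and 208 CPM against 0.488 and 0.209 CPM (log2 9.17 ± 0.88, SE, adjusted p = 0.01496) and netrin 1 (Ntn1) at 52.2, 32.1 and 339.9 CPM against 0.0212 and 0.314 CPM (log2 9.61 ± 1.98, SE, adjusted p = 0.0446). Nrp2 and Slit3 varied least of the 5 across the Foxl1 positive libraries, and Ntn1 most. Of the ephrins, which sort cells along the crypt axis, 1 of 7 was called, Efna5 at 20.1, 12.8 and 48.1 CPM against 0 in both (at least 1372-fold higher, adjusted p = 0.0262). The list had 4 below and 2 above in all libraries, against 28.6% and 21.8% of all genes, and a median log2 difference of -2.03. Efnb3 was at 0 in all against 1.95 and 2.51 CPM (adjusted p = 0.117) and Efna4 at 8.45, 0.418 and 7.87 CPM against 42.8 and 39.1 CPM (log2 -2.88 ± 1.21, SE, adjusted p = 0.1895), both below. Of 9 Eph receptors edgeR called 0, with 1 higher and 0 lower at an unadjusted p under 0.05. DESeq2 called 2 higher and 0 lower and limma-voom 0 higher and 0 lower. Ephb2, a receptor graded along the crypt, was below in all libraries at 51.5, 26.2 and 4.16 CPM against 107 and 73.4 CPM (log2 -1.72 ± 0.96, SE, adjusted p = 0.306).

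Matrix genes, which shape the bed under the epithelium, were taken in 5 lists. Of 12 fibrillar and beaded collagens 10 were higher and all 12 were above in all libraries, with a median log2 difference of 16.36 (16.71 as fitted). The list summed to 9938, 4977 and 84961 CPM in Foxl1 positive and to 2.31 and 1.797 CPM in Lgr5 positive replicates. Col12a1, which coats collagen fibrils, was at 1019.7, 891 and 1046 CPM against 0 and 0.00951 CPM (adjusted p = 0.01496), with 1 count in Lgr5 positive cells, and its level barely differed between the Foxl1 positive replicates. Col5a1, which nucleates fibrils, was at 596, 235 and 1756 CPM against 0.0212 and 0 CPM (adjusted p = 0.0172), with replicate 3 the highest. DESeq2 called 11 of the 12 with all libraries and 12 without any single one.

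Of 19 basement membrane genes 10 were higher, 16 were above and 1 was below in all libraries. Among laminins, Lama2 was at 597, 358 and 829 CPM against 0 in both (at least 30198-fold higher, adjusted p = 0.01496). Lama4 was at 418, 510.4 and 1143 CPM against 1.91 and 3.88 CPM (log2 7.89 ± 1.06, SE, adjusted p = 0.0178). Lamb1 was at 779.6, 583 and 2417 CPM against 0.509 and 0.722 CPM (log2 10.99 ± 1.38, SE, adjusted p = 0.0164). The member below in all libraries was Lamb3, a chain of epithelial laminin, at 1.17, 5.02 and 0.231 CPM against 41.7 and 29.4 CPM (log2 -4.04 ± 1.30, SE, adjusted p = 0.115), named after its values were seen. Small proteoglycans that bind collagen were called in 5 of 7 cases. Biglycan (Bgn) was at 2347, 818 and 1369 CPM against 0.0636 and 0 CPM (adjusted p = 0.0178). Osteoglycin (Ogn) was at 460.2, 405 and 1106 CPM against 0.0636 and 0.105 CPM (log2 12.84 ± 1.24, SE, adjusted p = 0.01496) and lumican (Lum) at 157, 161 and 1967 CPM against 0 in both (at least 38669-fold higher, adjusted p = 0.0327). These leucine-rich proteins space the collagen fibrils. Asporin (Aspn) was at 147, 67.2 and 1083 CPM against 0.212 and 0.361 CPM (log2 10.53 ± 1.90, SE, adjusted p = 0.0338) and decorin (Dcn), the fifth, at 859, 427 and 8697 CPM against 0 and 0.181 CPM (log2 15.00 ± 3.01, SE, adjusted p = 0.0425).

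Of 13 elastic fibre genes 8 were higher. Fbn1, the main fibrillin, was at 1128, 460.1 and 2253 CPM against 0 and 0.0285 CPM (adjusted p = 0.0164). Fbn2 was at 102, 32.6 and 204 CPM against 0 and 0.01901 CPM (adjusted p = 0.0165). Loxl2, a crosslinking oxidase, was at 285, 241 and 764 CPM against 0.318 and 0.0951 CPM (log2 11.04 ± 1.33, SE, adjusted p = 0.0164). Mfap4 was at 310.1, 197 and 1946 CPM against 0 and 0.0285 CPM (adjusted p = 0.0206). Replicate 3 was the highest for all 4. Matrix proteases and their inhibitors were called in 7 of 14 cases, with 11 above and 1 below in all libraries. Mmp2 was at 379, 375 and 2327 CPM against 0 and 0.0285 CPM (adjusted p = 0.0181). Mmp10 was at 93.1, 21.1 and 280.2 CPM against 0 in both (at least 6674-fold higher, adjusted p = 0.0263). Adamts5 was at 61.6, 26.5 and 36.6 CPM against 0 in both (at least 2109.7-fold higher, adjusted p = 0.0172). Adamts10 was at 158, 48.1 and 338 CPM against 0.467 and 0.371 CPM (log2 8.75 ± 1.26, SE, adjusted p = 0.0204). Among the called genes named from these 5 lists, Bgn and Adamts5 were highest in replicate 1 and the others in replicate 3.

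Smooth muscle and contractile genes were above in all libraries for 13 of 13 members, and 8 were called. Acta2, smooth muscle actin, stood at 362, 159 and 3809 CPM in Foxl1 positive replicates and at 0.0424 and 0.00951 CPM in Lgr5 positive ones (adjusted p = 0.0298). Synpo2, an actin-bundling protein of smooth muscle, was at 169.8, 122 and 192 CPM against 0 in both (at least 8179-fold higher, adjusted p = 0.01496) and tropomyosin 2 (Tpm2) at 375, 96.6 and 511 CPM against 0.806 and 0.542 CPM (log2 8.92 ± 1.19, SE, adjusted p = 0.0178). Mylk, the kinase that activates smooth muscle myosin, stood at 801, 608 and 686 CPM in Foxl1 positive replicates and at 41.02 and 36.9 CPM in Lgr5 positive ones (log2 4.16 ± 0.69, SE, adjusted p = 0.0261). Synpo2 and Mylk varied little over the Foxl1 positive replicates, whereas Acta2 was more than 10 times higher in replicate 3 than in replicate 1. Pericyte markers, which smooth muscle shares in part, were called in 6 of 6 cases. Kcnj8, a potassium channel subunit, was at 181, 92.7 and 169 CPM against 0 in both (at least 7497-fold higher, adjusted p = 0.01496). Its partner Abcc9 was at 646, 340.0 and 257 CPM against 0 and 0.105 CPM (log2 12.68 ± 1.67, SE, adjusted p = 0.0178). Rgs5 was at 133, 83.8 and 236 CPM against 0 and 0.0856 CPM (log2 11.48 ± 1.54, SE, adjusted p = 0.01804). Cspg4 was at 91.99, 69.3 and 239.9 CPM against 0.0848 and 0 CPM (log2 11.77 ± 1.85, SE, adjusted p = 0.0241). Endothelial markers were called in 3 of 10 cases, all of them genes of vessel walls. Pecam1 was at 114, 100.1 and 261 CPM against 0.806 and 0.485 CPM (log2 7.94 ± 0.95, SE, adjusted p = 0.0164). Cdh5 was at 15.3, 43.5 and 38.9 CPM against 0 in both (at least 1654-fold higher, adjusted p = 0.0205). Vwf was at 24.9, 34.03 and 85.1 CPM against 2.27 and 1.38 CPM (log2 4.72 ± 1.01, SE, adjusted p = 0.0486).

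Smooth muscle genes are classically driven by serum response factor at CArG boxes, CC, 6 bases of A or T, then GG. Of 10 contractile genes with a RefSeq promoter, 1 held such a box, Myl9, a myosin light chain gene, as did 1.81% of 27025 genes. Myl9 was at 157, 53.7 and 1321 CPM against 1.19 and 0.665 CPM (log2 9.10 ± 1.96, SE, adjusted p = 0.0492). Its promoter stretch (GRCm38.p6, chr2:156775278-156775337, plus strand) is shown with the box in capitals, as a match and not a site of binding.
Myl9: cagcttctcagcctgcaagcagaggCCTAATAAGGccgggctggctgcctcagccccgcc

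Markers of telocytes and of crypt base fibroblasts, the mesenchymal types nearest the stem cells, were mostly above in all libraries. Of 13 telocyte markers 6 were higher and 12 were above in all libraries, while the Notch ligand gene Dll1, given with the Notch genes, was below. Beside Pdgfra, Wnt5a, Bmp5, Bmp6 and Gli1 the sixth was F3, tissue factor, at 67.03, 60.8 and 352 CPM against 2.48 and 2.196 CPM (log2 6.09 ± 1.19, SE, adjusted p = 0.0391). The 12 above in all libraries include Foxl1, whose replicate 1 value was under the level that a count of 0 allows. Of 7 crypt base fibroblast markers tested 3 were higher, Sfrp1, Wnt2b and Dpt, the last at 487, 507 and 631 CPM against 0 and 0.114 CPM (log2 12.96 ± 1.63, SE, adjusted p = 0.0164). C3, complement component 3, was at 407, 27.5 and 1494 CPM against 1.04 and 1.25 CPM (log2 9.13 ± 2.04, SE, adjusted p = 0.0531). The tetraspanin gene Cd81, named after its values were seen, was the 1 of the 7 below in all libraries, at 105, 255 and 165 CPM against 388 and 365 CPM (log2 -1.10 ± 0.60, SE, adjusted p = 0.291). The telocyte list summed to 2264, 1977 and 3636 CPM in Foxl1 positive and to 100.1 and 94.5 CPM in Lgr5 positive replicates, and the fibroblast list to 1949.6, 1017 and 3485 CPM in Foxl1 positive and to 389 and 368 CPM in Lgr5 positive replicates. Pdgfra, which also labels other fibroblasts, was the largest single part of the telocyte sum in each Foxl1 positive library.

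Of 16 mesenchymal factors 5 were higher and 11 above in all libraries. Zeb1 and Zeb2, repressors of epithelial genes, were at 123, 114 and 94.2 CPM against 0 and 0.03802 CPM (log2 12.02 ± 1.26, SE, adjusted p = 0.0155) and 689, 212 and 270.2 CPM against 0 in both (at least 19829-fold higher, adjusted p = 0.0156). Tcf21, a fibroblast factor, was at 70.7, 23.2 and 164 CPM against 0 in both (at least 4373-fold higher, adjusted p = 0.0205). Nkx2-3, the homeobox factor of gut mesenchyme, was at 128, 34.6 and 314 CPM against 0 in both (at least 8073-fold higher, adjusted p = 0.0206). Meis1 was the fifth, at 8.26, 29.7 and 101 CPM against 0 in both (at least 2354-fold higher, adjusted p = 0.0338). Of 13 forkhead genes 2 were called, Foxf1a and Foxf2 (above). Foxa2, an endodermal factor, lay below in all libraries at 0.0971, 2.23 and 0 CPM against 30.97 and 32.1 CPM (log2 -5.31 ± 1.72, SE, adjusted p = 0.116). Of 20 Hox genes 1 was called and 6 were above in all libraries, while 4.84% of all genes were called higher and 21.8% were above. The call was Hoxc8, at 127, 10.2 and 25.9 CPM against 0 in both (at least 2762-fold higher, adjusted p = 0.0342). The other Hoxc genes named here were above in all libraries without passing. Hoxc4 was at 37.4, 1.67 and 12.7 CPM against 0 in both (adjusted p = 0.0568). Hoxc5 was at 10.1, 0.418 and 39.6 CPM against 0 in both (adjusted p = 0.0792). Hoxc6 was at 43.6, 0.418 and 17.1 CPM against 0 in both (adjusted p = 0.0721), and none of the 4 had an Lgr5 positive count.

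Epithelial transcription factors gave 1 call among 17, with 6 below in all libraries and 0 above. Of all genes 28.6% were below in all libraries. Cdx2, the master factor of intestinal epithelium, stood at 11.5, 15.3 and 3.24 CPM in Foxl1 positive replicates and at 343 and 222 CPM in Lgr5 positive ones (log2 -4.81 ± 0.80, SE, adjusted p = 0.0276). Ovol1 was at 1.55, 7.11 and 1.85 CPM against 42.4 and 30.1 CPM (log2 -3.37 ± 1.03, SE, adjusted p = 0.104). Elf3 was at 165, 83.5 and 11.6 CPM against 639.9 and 346 CPM (log2 -2.51 ± 1.02, SE, adjusted p = 0.178). Gata6 was at 43.1, 73.5 and 3.93 CPM against 175 and 189 CPM (log2 -2.18 ± 1.03, SE, adjusted p = 0.236). The list summed to 1961, 1898 and 65.01 CPM in Foxl1 positive and to 3488 and 2949 CPM in Lgr5 positive replicates, with replicate 3 far below the others. Of 24 keratin and junction genes 1 was called as well, the claudin Cldn7, at 29.2, 64.6 and 21.5 CPM against 633 and 457 CPM (log2 -3.83 ± 0.70, SE, adjusted p = 0.0341), with 14 below in all libraries. Krt18 was at 190.3, 34.2 and 4.63 CPM against 1115 and 829 CPM (log2 -3.67 ± 1.35, SE, adjusted p = 0.145), lowest in replicate 3.

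Crypt base stem cell genes were below in all libraries for 16 of 19 members, against 28.6% of all genes, and their median log2 difference was -2.55. The 2 above in all libraries, named after their values were seen, were Cdk6, at 79.1, 67.5 and 24.1 CPM against 11.1 and 11.9 CPM (log2 2.31 ± 0.78, SE, adjusted p = 0.124), and Nav1, at 173, 152 and 202 CPM against 98.4 and 123 CPM (log2 0.67 ± 0.52, SE, adjusted p = 0.467). On the FPKM scale Nav1 turned to the Lgr5 positive side, with a log2 difference of -0.34 after adding 1. The call was Cdca7, a MYC-responsive gene of dividing cells, which stood at 36.6, 16.6 and 37.02 CPM in Foxl1 positive replicates and at 314 and 361 CPM in Lgr5 positive ones (log2 -3.49 ± 0.61, SE, adjusted p = 0.0305). Olfm4, a widely used marker of these stem cells, stood at 551, 351 and 44.4 CPM in Foxl1 positive replicates and at 5196 and 7032 CPM in Lgr5 positive ones (log2 -4.28 ± 1.18, SE, adjusted p = 0.0827), without passing. Rgmb, a BMP coreceptor, was at 12.4, 18.4 and 47.2 CPM against 172 and 191 CPM (log2 -2.81 ± 0.71, SE, adjusted p = 0.0681). The acyltransferase gene Soat1 was at 63.1, 79.2 and 31.0 CPM against 218 and 319 CPM (log2 -2.22 ± 0.61, SE, adjusted p = 0.0808). Hopx, a marker of slow-cycling stem cells, was called from a list of 5, at 30.02, 14.5 and 9.95 CPM against 195 and 249 CPM (log2 -3.61 ± 0.66, SE, adjusted p = 0.0347). Bmi1, from the same list, was at 36.2, 19.9 and 43.3 CPM against 61.3 and 96.2 CPM (log2 -1.25 ± 0.61, SE, adjusted p = 0.247). By DESeq2, 1 stem cell gene was higher and 7 were lower with all libraries, with 0 or 1 higher and 1 to 12 lower without single ones.

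Proliferation genes, which mark the dividing stem cells, lay on the Lgr5 positive side. Of 22 mitosis genes 4 were lower and 18 below in all libraries. Cdk1, the mitotic kinase, stood at 9.62, 18.1 and 24.8 CPM in Foxl1 positive replicates and at 147 and 131 CPM in Lgr5 positive ones (log2 -2.99 ± 0.62, SE, adjusted p = 0.0437). Cyclin A2 (Ccna2) was at 87.8, 66.4 and 55.99 CPM against 364 and 414 CPM (log2 -2.47 ± 0.53, SE, adjusted p = 0.0482) and the checkpoint gene Mad2l1 at 19.2, 28.5 and 22.2 CPM against 148 and 161 CPM (log2 -2.73 ± 0.53, SE, adjusted p = 0.03695). Ect2, which starts cytokinesis, was at 8.84, 18.1 and 12.5 CPM against 159 and 222 CPM (log2 -3.86 ± 0.60, SE, adjusted p = 0.0227). The Foxl1 positive libraries differed by less than 3 times among themselves for each of the 4, and all lay well below the stem cells. These 4 had the smallest p of the list, and the list as a whole was less even. It summed to 2660, 1117 and 555 CPM in Foxl1 positive and to 3774 and 4090 CPM in Lgr5 positive replicates, with Foxl1 positive replicate 1 the nearest to the stem cells. Of 24 DNA replication genes 1 was called, the flap endonuclease gene Fen1, at 11.5, 15.6 and 13.2 CPM against 152 and 89.4 CPM (log2 -3.17 ± 0.58, SE, adjusted p = 0.0334), while 22 were below in all libraries. Mcm5 was at 26.7, 27.1 and 35.6 CPM against 136 and 110.2 CPM (log2 -2.05 ± 0.52, SE, adjusted p = 0.0678). Mcm6 was at 83.1, 80.1 and 95.1 CPM against 367 and 309 CPM (log2 -1.97 ± 0.51, SE, adjusted p = 0.0683). Both encode subunits of the replicative helicase. The clamp gene Pcna was at 32.1, 37.1 and 12.3 CPM against 155 and 147 CPM (log2 -2.47 ± 0.64, SE, adjusted p = 0.0713).

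The calls in these lists depended on both stem cell libraries. DESeq2 called 9 mitosis and 10 replication genes lower with all libraries, 7 to 14 of each without single Foxl1 positive ones, but 1 and 0 mitosis genes and 0 and 0 replication genes without Lgr5 positive replicate 1 or 2. Of 5 cyclin-dependent kinase inhibitor genes tested, Cdkn1b, which encodes p27, was lower as well, at 15.6, 26.1 and 6.94 CPM against 209 and 304 CPM (log2 -3.98 ± 0.72, SE, adjusted p = 0.0334). Cdkn1a, which encodes p21, was on the other side in all libraries at 143, 104 and 78.9 CPM against 20.2 and 20.9 CPM (log2 2.40 ± 0.60, SE, adjusted p = 0.0643), short of the threshold.

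**Figure D4:**
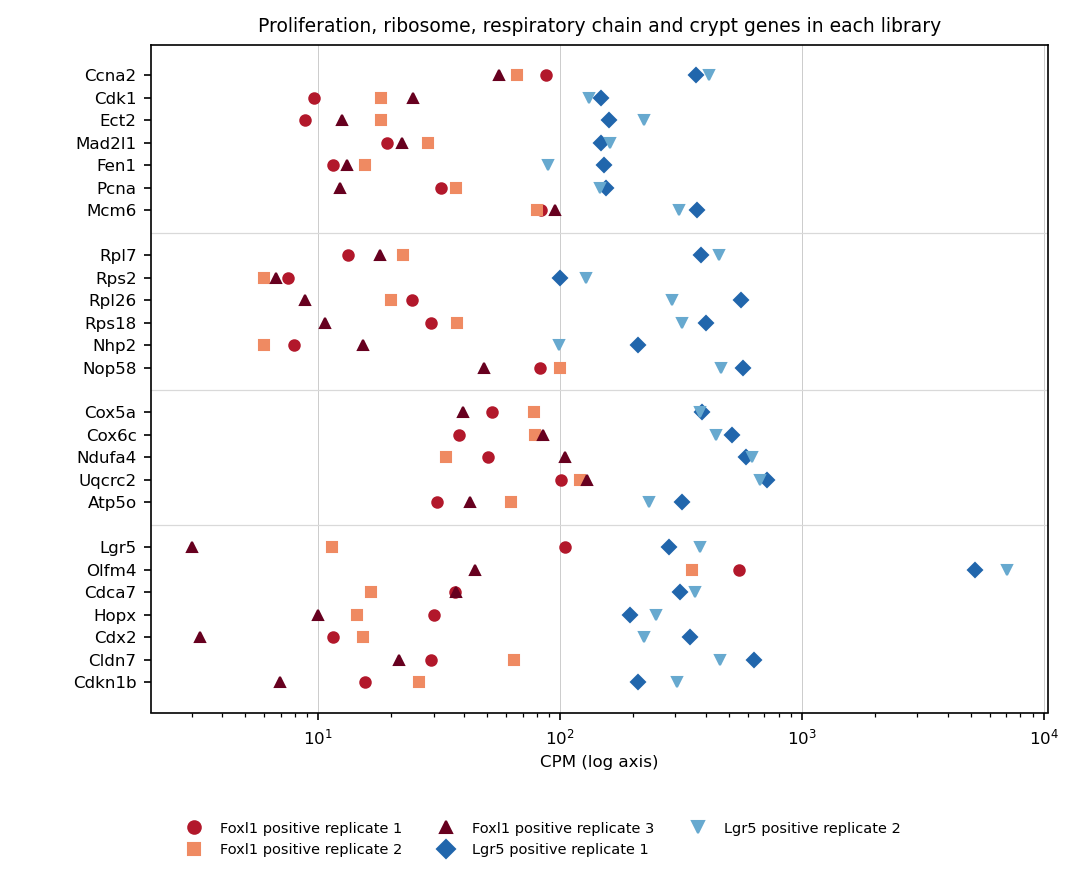
CPM in each library, on a log axis, of proliferation genes, ribosomal and ribosome biogenesis genes, respiratory chain genes and crypt or epithelial genes, in 4 blocks with 1 symbol per library. All genes shown lie lower in each Foxl1 positive library than in both Lgr5 positive ones, and replicate 3 is the lowest for Lgr5, Olfm4, Hopx and Cdx2 but not for Cdk1 or Uqcrc2. The genes are a selection, and the crypt genes Cdk6 and Nav1, which lie higher, are not drawn.

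Ribosomal protein genes, a list added after the data were seen, were lower in 16 of 77 cases and below in all libraries in 68, with a median log2 difference of -2.47. Rpl7 stood at 13.3, 22.5 and 18.05 CPM in Foxl1 positive replicates and at 382 and 454 CPM in Lgr5 positive ones (log2 -4.54 ± 0.58, SE, adjusted p = 0.0164). Rps2 was at 7.48, 5.997 and 6.71 CPM against 99.97 and 128 CPM (log2 -4.08 ± 0.58, SE, adjusted p = 0.0191). Rpl26, whose counts were those of a copy, Gm15772, in every library, was at 24.4, 20.1 and 8.79 CPM against 561 and 291 CPM (log2 -4.58 ± 0.71, SE, adjusted p = 0.0231). Near-identical copies are common in this family, so which locus a read came from is uncertain. DESeq2 called 38 of 77 lower, and 10 to 52 without single libraries. The list summed to 4956, 4307 and 1247 CPM in Foxl1 positive and to 31377 and 21889 CPM in Lgr5 positive replicates, with Foxl1 positive replicate 3 the lowest.

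Messages of this family are known for a C at the first base followed by a run of pyrimidines, which ties their translation to growth signals. In RefSeq promoters 13 of 56 ribosomal protein genes had a C with at least 4 pyrimidines after it exactly at the annotated start, against 3.01% of 27025 genes. Of 9 called genes with a promoter 1 had it, Rps18, at 29.1, 37.5 and 10.6 CPM against 401 and 319 CPM (log2 -3.80 ± 0.70, SE, adjusted p = 0.0344). Annotated starts can be off by some bases, so a missing run says little. The first line is that of Rps18 (chr17:33955656-33955685, minus strand), and Rpl28 (chr7:4792945-4792974, plus) and Rps6 (chr4:86857358-86857387, minus), not called, stand for the other 12. Each runs from 20 bases before the start to 10 after it in GRCm38.p6, with the pyrimidine run in capitals.
Rps18: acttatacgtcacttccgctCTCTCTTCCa
Rpl28: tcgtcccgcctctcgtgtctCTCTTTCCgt
Rps6: gggttaagcggaagtcgggcCTCTTTTTCg

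Genes that build ribosomes were lower in 2 of 20 cases and below in all libraries in 14. Nhp2, of the pseudouridylation complex, was at 7.97, 5.997 and 15.3 CPM against 209 and 99.1 CPM (log2 -3.99 ± 0.70, SE, adjusted p = 0.0319). Nop58, of the methylation complex, was at 82.96, 99.7 and 48.6 CPM against 570.4 and 462 CPM (log2 -2.74 ± 0.59, SE, adjusted p = 0.0475). Npm1, nucleophosmin, was at 278, 170.3 and 39.8 CPM against 1832 and 1468 CPM (log2 -3.34 ± 0.92, SE, adjusted p = 0.08101). Respiratory chain genes were lower in 5 of 20 cases and below in all libraries in 19. They were the cytochrome oxidase genes Cox5a, at 52.5, 78.4 and 39.8 CPM against 387 and 378 CPM (log2 -2.75 ± 0.56, SE, adjusted p = 0.0433), and Cox6c, at 38.4, 78.9 and 85.4 CPM against 516 and 441 CPM (log2 -2.82 ± 0.60, SE, adjusted p = 0.0473), and Ndufa4, at 50.4, 33.9 and 105 CPM against 586 and 622 CPM (log2 -3.26 ± 0.68, SE, adjusted p = 0.04604). Uqcrc2, of complex III, was at 101, 120.5 and 129 CPM against 719 and 672 CPM (log2 -2.57 ± 0.55, SE, adjusted p = 0.0475). Atp5o, of the ATP synthase, was at 31.1, 62.9 and 42.6 CPM against 318 and 233 CPM (log2 -2.60 ± 0.57, SE, adjusted p = 0.0498). By DESeq2 9 respiratory chain genes were lower with all libraries, 6 to 15 without single Foxl1 positive ones and 0 without either Lgr5 positive one.

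Genes induced by stress and dissociation were higher in 3 of 18 cases and above in all libraries in 9. The phosphatase gene Dusp1 stood at 384, 354 and 821 CPM in Foxl1 positive replicates and at 5.54 and 4.56 CPM in Lgr5 positive ones (log2 6.68 ± 0.88, SE, adjusted p = 0.0174). Zfp36, which speeds the decay of cytokine messages, was at 369, 287 and 361 CPM against 38.3 and 25.2 CPM (log2 3.42 ± 0.63, SE, adjusted p = 0.0338), and the immediate early factor Egr1 at 721, 311 and 394 CPM against 36.3 and 11.3 CPM (log2 4.32 ± 0.90, SE, adjusted p = 0.0458). Nr4a1, another immediate early factor, was at 17.97, 113 and 33.3 CPM against 1.697 and 0.5704 CPM (log2 5.59 ± 1.29, SE, adjusted p = 0.0561). The heat shock gene Hsp90aa1, chosen after its values were seen, was below in all Foxl1 positive libraries at 99.1, 107 and 49.3 CPM against 494 and 306 CPM (log2 -2.23 ± 0.61, SE, adjusted p = 0.0787).

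Of 13 enterocyte, 8 Paneth and 7 goblet cell markers edgeR called 0, with 0 at an unadjusted p under 0.05, and 0 lay on 1 side in all libraries. limma-voom called 0 of them. The brush border peptidase Anpep was at 1465, 3551 and 22.9 CPM against 149 and 151 CPM (log2 3.49 ± 1.78, SE, adjusted p = 0.267). DESeq2 called 1 enterocyte marker higher with all libraries, 7 higher without Foxl1 positive replicate 3 and 2 lower without replicate 2. It called 0 Paneth or goblet markers with all libraries. Without Foxl1 positive replicate 1 it called 2 Paneth markers and 1 goblet marker lower. Without replicate 3 it called 1 Paneth marker and 2 goblet markers higher. Of 12 enteroendocrine markers 5 were below in all libraries, against 28.6% of all genes, and the call was Gip, given above. The list summed to 831, 57.7 and 0.463 CPM in Foxl1 positive and to 382 and 226 CPM in Lgr5 positive replicates, highest in Foxl1 positive replicate 1. Neurog3, the factor that starts the endocrine lineage, was at 0, 1.81 and 0 CPM against 12.1 and 11.7 CPM (log2 -4.27 ± 2.08, SE, adjusted p = 0.248). Tuft cell markers were below in all libraries in 5 of 6 cases, against 28.6% of all genes. By edgeR 0 were called, with 0 higher and 4 lower at an unadjusted p under 0.05. DESeq2 called 0 higher and 3 lower and limma-voom 0 higher and 4 lower. Pou2f3, the tuft cell factor, was at 3.89, 0.279 and 4.63 CPM against 31.2 and 56.7 CPM (log2 -3.91 ± 1.21, SE, adjusted p = 0.106).

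Blood and immune lineages were represented in the Foxl1 positive sort. Cd3e, of the T cell receptor complex, stood at 394, 408 and 4.396 CPM in Foxl1 positive replicates and at 0.127 and 0.0951 CPM in Lgr5 positive ones (log2 11.21 ± 2.36, SE, adjusted p = 0.0467). It was the call among 8 T cell markers, 6 of which were above in all libraries, and was far higher in replicates 1 and 2 than in replicate 3. Igj, the joining chain of secreted immunoglobulin, was the call among 4 B and plasma cell markers, at 796, 219 and 467 CPM against 0.255 and 0.779 CPM (log2 9.87 ± 1.26, SE, adjusted p = 0.0167). C1qb, a complement gene of macrophages, was the call among 9 macrophage markers, at 20.01, 4.32 and 14.6 CPM against 0 in both (at least 659-fold higher, adjusted p = 0.0434). Of these 9 markers 7 were above and 1 was below in all libraries, and the lowest log2 difference of the list was -2.26. Of 3 glial and neuronal markers edgeR called 0, with 2 higher and 0 lower at an unadjusted p under 0.05. DESeq2 called 1 higher and 0 lower and limma-voom 0 higher and 0 lower. Sox10 was at 0, 1.39 and 1.85 CPM against 0 in both (adjusted p = 0.146). Of 3 markers of interstitial cells of Cajal it called 0 as well, with 2 higher and 0 lower at an unadjusted p under 0.05. DESeq2 called 2 higher and 0 lower and limma-voom 2 higher and 0 lower. Etv1 was at 118, 85.4 and 48.8 CPM against 0 and 0.779 CPM (log2 7.70 ± 1.91, SE, adjusted p = 0.06495).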

How the data were processed

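RNA of cells sorted after dispase and trypsin dissociation was sequenced, and the authors deposited a table of raw read counts with FPKM values beside them, 1 row per transcript. Per the submitters' processing notes, CASAVA 1.8.2, edgeR and the mm9 build were used. The sources used here give no aligner, counter, strand setting or annotation. Of 24082 transcripts the row marked as the best of each gene was kept, which left 18594 genes. The 3 Foxl1 positive and 2 Lgr5 positive libraries were fitted alone with edgeR 4.0.16 under R 4.3.3 (TMM scaling, its default filter on low counts by group, robust quasi-likelihood fit, 2-sided test), with Benjamini-Hochberg adjustment over 14259 genes. A gene was called at an adjusted p under 0.05. Fold changes are log2 of Foxl1 positive over Lgr5 positive with the standard error of the fit, and CPM are TMM-scaled. Where a group had no count or 1 to 3 counts, no fitted fold is given. Deviations of same-numbered replicates from their group means correlated at -0.005 and 0.056. With 2 Lgr5 positive libraries, whose deviations mirror each other, this cannot decide whether the numbers pair the samples. No block was fitted in the main test, since the groups came from mice of different genotypes and no pairing was given. The count fits were also run on simulated counts with known changes and the same fixed spread for all genes. This checks the code, and not how the calls hold up in libraries as uneven as these.

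Members and gene lists were chosen with earlier results of these data known. Named genes were Foxl1, Lgr5 and Col3a1, the tested Wnt ligands and Wnt secretion genes, the 10 largest changes in each direction at a mean of at least 10 CPM, and up to 4 members of each list with the smallest p, plus pairing ligands or receptors. Genes named to complete a short count, promoter examples, the ribosomal protein list and the DESeq2 fits without single libraries were chosen after the values were seen. DESeq2 1.42.0 and limma 3.58.1 served as alternatives, and promoters and the microRNA came from RefSeq tables (GRCm38.p6), used for sequence only. Some members of the named lists are not reported here.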

Additional observations from a re-analysis of the deposited data

How the results depend on the processing

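The call counts of 690 higher and 126 lower moved with the method. DESeq2 gave 2678 and 774, limma-voom 1482 and 863, limma on log2(FPKM + 1) 388 and 2713, and limma on log2(FPKM + 0.1) 585 and 1907. Thinning the libraries to 1 depth gave 516 and 67, and a fit of all 10 libraries gave 0 and 0, with 2244 genes at an unadjusted p under 0.05. The fit with a replicate block gave 2065 and 1169, though nothing given ties same-numbered replicates together. Leaving out single libraries gave 0 to 2123 higher and 0 to 1181 lower by edgeR, and 1674 to 3378 and 48 to 2075 by DESeq2. Other filters, scalings and the choice of transcript stayed within 1.5 times of the main counts. The median log2 fold change of all genes was 0.06, and 0.26 with median-of-ratios and 0.12 with upper quartile scaling. It was 0.22 after thinning, -0.34 by voom, -0.82 and -1.29 on the FPKM scales with 1 and 0.1 added, and -0.21 with the block. The overlapping genes Porcn, Wnt9b and Wnt5b changed sign, and the cause was not tested. Porcn was at -3.15 by voom, -0.31 and -1.68 on the 2 FPKM scales, -9.40 with the replicate block and -9.70 to 0.85 without single libraries, the lowest without Foxl1 positive replicate 3. Wnt9b was at -2.58, -0.0642, -0.66 and -8.55 in those settings and at -8.90 to 0.85 without single libraries, again lowest without that replicate and at -0.09 without Lgr5 positive replicate 1. Wnt5b was at -0.29 on log2(FPKM + 0.1), -0.70 with the block and -0.31 to 1.95 without single libraries, lowest without the same one. Nav1 was at -0.34 and -0.43 on the FPKM scales.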
